A study of Homo sapiens with 23 samples.

Results

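Start sites of DNA replication were described in HCT116 cells, an established colon carcinoma line. They were called after replication stress, in cells depleted of SIRT1 and in such cells given the T530A mutant of SIRT1. SIRT1 is a NAD-dependent deacetylase. The sites are peaks of the SIRT1-depleted list that overlapped, by at least 1 bp, a peak of the T530A rescue list and a peak of the aphidicolin list, and no peak of the wild-type rescue list. They are called shared sites below. They were thus chosen by the presence or absence of called nascent-strand peaks in these 4 lists. There were 8659 of them among 109990 depleted-list peaks on chromosomes 1 to 22 and X (7.87%). The 4 lists that chose the sites are used only to describe them.

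Nascent strands, the short new DNA left after λ-exonuclease digestion of size-selected DNA, were mapped in 4 HCT116 libraries. The first came from a clone depleted of SIRT1. The rescue libraries came from depleted clones in which wild-type SIRT1 or the T530A mutant, which lacks the threonine that becomes phosphorylated, had been restored. The last came from HCT116 cells with their own SIRT1, treated with 200 nM aphidicolin, an inhibitor of replicative DNA polymerases, for 24 h and grown without it for another 24 h. Each rescue or depletion is thus described by 1 clone, and how SIRT1 was depleted is not given in the sources used here. Untreated HCT116 cells that were not synchronised gave ChIP lists for SIRT1 phosphorylated at T530 (pSIRT1), for a phosphorylated form of the helicase subunit MCM2 (pMCM2) and for acetylated histone H4 (H4K16ac). K562, a chronic myelogenous leukemia line, gave nascent-strand lists of early, middle and late S phase and ChIP lists of 5 cell cycle fractions. The peaks of the 4 HCT116 nascent-strand lists held 13701955 to 20014274 reads per list, the most in the depleted list and the fewest after aphidicolin. Every group had 1 library, so no test was made and no p-value is given. A peak list cannot show whether SIRT1 was absent or restored, so these labels were not checked.

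Replication origins are licensed in G1, when the origin recognition complex loads the MCM helicase onto DNA. Many more origins are licensed than are used in an unperturbed S phase. Those that stay silent unless forks slow or stop nearby are called dormant origins, and aphidicolin is a common way to bring them into use. Phosphorylation of MCM2 accompanies activation of the helicase, and acetylation of H4 at lysine 16 is a mark of open chromatin that SIRT1 can remove. Shared sites are candidates for dormant origins by their definition alone, since nascent strands of untreated HCT116 cells were not analysed here.

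Shared sites were of ordinary width and strength for their list. In the SIRT1-depleted list they had a median width of 2400 bp (quartiles 1400 and 4000 bp) and a median of 107 reads (71 and 176), the same medians as all 109990 peaks of that list. Their median rank lay at the 50.2 percentile of that list, at 54.7 in the T530A list and at 56.2 in the aphidicolin list. Reads per kb were 45.7 in SIRT1-depleted cells, 44.0 with the T530A mutant and 42.9 after aphidicolin, as medians over the sites, with no scaling between libraries. The T530A and aphidicolin values were taken over the whole partner peaks. These unscaled values were close to each other, and the median over all depleted-list peaks was also close, at 45.9 reads per kb. Signal at the sites was thus not compared between libraries. Sites found in all 4 lists, 34785 in number, were wider, at 4000 bp, and had 185 reads in depleted cells, as medians. Their signal per kb was close to that of the shared sites, 48.3, 45.6 and 44.0 reads in the same order. The 9269 depleted-list peaks that were in the T530A list but in neither the aphidicolin nor the wild-type rescue list, called sites of SIRT1 loss without stress, had a median of 2000 bp and 92 reads. Across the shared sites, reads per kb in depleted cells went with those in T530A rescue cells with a Spearman's rho of 0.303 (8659 sites) and with those after aphidicolin with 0.266. Across the sites of all 4 lists these values were higher, at 0.382 and 0.327 (34785 sites). Between T530A rescue and aphidicolin rho was 0.330 at shared sites and 0.361 at sites of all 4 lists. The points share their genome position and may share the same control DNA, so these values describe the lists and carry no test.

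At 8416 shared sites (97.2%) the depleted, T530A and aphidicolin peaks had a base in common, and for the median site 60% of its length was covered by peaks of both other lists. A neighbouring wild-type rescue peak could still be joined to the site by a long partner peak. The T530A partner reached a wild-type rescue peak at 902 sites (10.4%) and the aphidicolin partner did so at 938 (10.8%). At 7288 sites (84.2%) neither partner touched the wild-type rescue list.

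Few shared sites had fewer reads than the weakest wild-type rescue peak of any width. No wild-type rescue peak had fewer than 31 reads, and the lowest counts of the other lists were 24 or 25. Only 13 shared sites had fewer than 31 reads in the depleted clone, 11 had so in the T530A rescue and 9 with aphidicolin. Set against wild-type rescue peaks of the same width, 55.6% of the shared sites exceeded the median count of those peaks in the depleted clone, 59.3% in the T530A rescue and 58% with aphidicolin. Below the 5th percentile of those peaks lay 16.8, 10.1 and 9.23% of the sites, and below their lowest count 2.20, 1.22 and 0.711%. These shares were not taken over all depleted-list peaks, so they are not shown to be particular to shared sites. Depth was not scaled in this comparison, and each kb of wild-type rescue peaks held 40.2 reads, where the depleted, T530A and aphidicolin lists held 52.1, 45.4 and 43.6. Its median peak was also wider, at 3800 bp, than the median of 2400 bp in each other list. The part of depth and peak calling in the absence of these sites from the wild-type rescue list was not tested.

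Absence from only 1 of the 4 lists was not particular to the wild-type rescue. Counted over depleted-list peaks, 8931 sites were missing only from the aphidicolin list and 5984 only from the T530A list, beside the 8659 missing only from the wild-type rescue. Counted over T530A-list peaks, 8692 sites were missing only from the wild-type rescue, 8909 only from the aphidicolin list and 8121 only from the depleted list. Over wild-type rescue peaks the numbers missing only from the aphidicolin, depleted and T530A lists were 7340, 7005 and 4848. The wild-type rescue list was thus missing about as many otherwise common sites as the aphidicolin and depleted lists were, and the T530A list was missing the fewest.

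**Figure D1:**
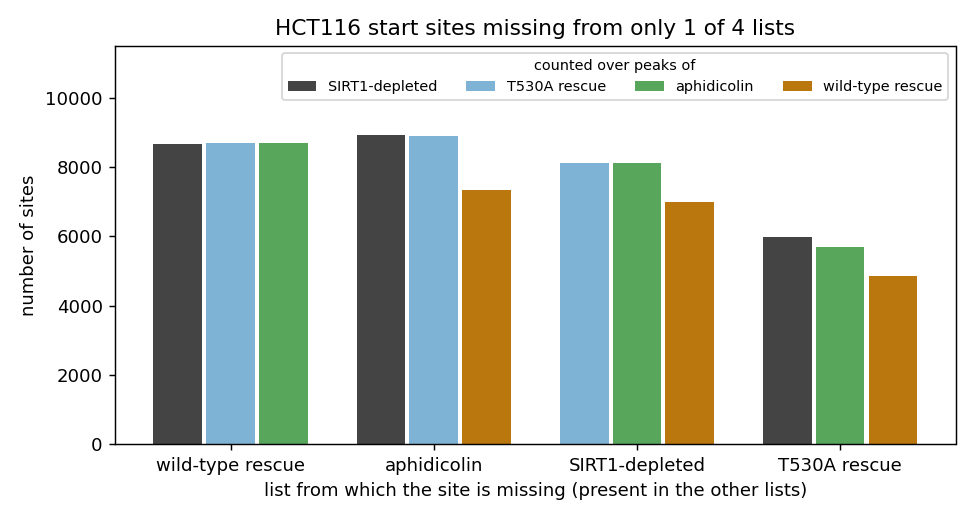
Number of HCT116 start sites (vertical axis) that were present in 3 nascent-strand lists and missing from the list named on the horizontal axis, with 1 bar for each list over whose peaks they were counted. The bars for the wild-type rescue stand at 8659 to 8694, near those for the aphidicolin list counted over depleted or T530A peaks (8931 and 8909), and the bars for T530A are the lowest.

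Shared sites lay close to sites that the wild-type rescue cells used. The median distance to the nearest wild-type rescue site, from edge to edge, was 6.60 kb, with quartiles of 2.20 and 17.0 kb. Within 1 kb of such a site lay 12.7% of the shared sites, within 5 kb 42.9% and within 10 kb 61.3%. Over 50 kb away were 539 sites (6.22%), and the farthest shared site stood 5.93 Mb away. All 54083 depleted-list peaks outside the wild-type rescue list had a median of 9.40 kb, with 51.9% within 10 kb and 11.5% beyond 50 kb. Sites of SIRT1 loss without stress lay somewhat farther out, with a median of 7.80 kb and 8.74% beyond 50 kb. Depleted-list peaks found in no other HCT116 list were the most remote, at a median of 11.4 kb and 14.8% beyond 50 kb.

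The same distance was taken for the sites missing from another list, a comparison chosen after seeing the data. Sites missing only from the aphidicolin list had an aphidicolin site at a median of 4.60 kb, and those missing only from the T530A list had a T530A site at 4 kb. Sites missing only from the depleted list, counted over T530A peaks, had a depleted-list site at 5.40 kb. The lists hold 74479 (wild-type rescue), 96993 (aphidicolin), 103974 (T530A) and 109990 peaks (depleted), and the part of list length in these distances was not tested. A few kb between a missing site and the nearest site of the list that lacks it was common to all 4 classes.

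**Figure D2:**
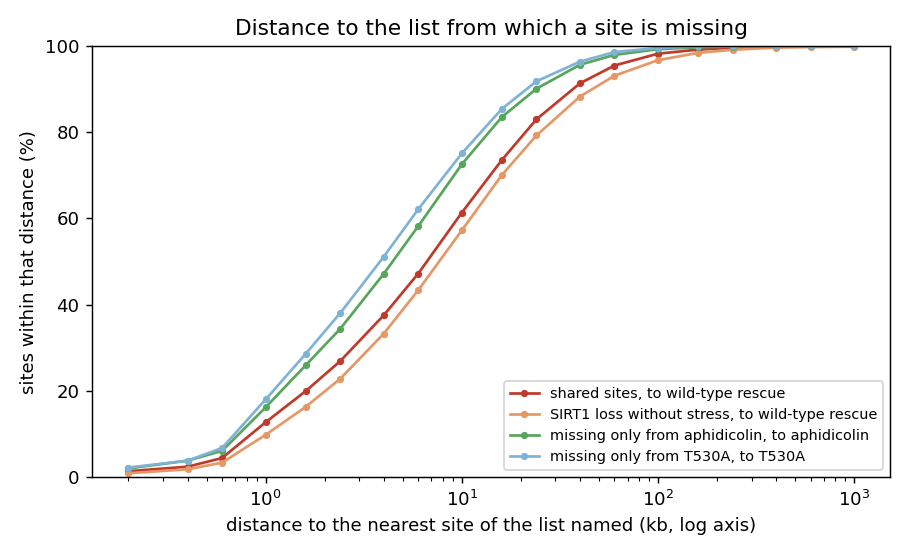
Cumulative percentage of sites (vertical axis) with a site of the named list within a given distance in kb (horizontal axis, log scale). The curve of the shared sites passes 61.3% at 10 kb, above the sites of SIRT1 loss without stress (57.2%) and below the sites missing only from the aphidicolin list (72.6%) or the T530A list (75.1%).

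The position of shared sites between wild-type rescue sites was also recorded. The wild-type rescue list had 74456 gaps between neighbouring sites, with a median length of 11.6 kb, and 10.0% of the gaps held a shared site. Counted once for each site, the gaps that held shared sites had a median of 39.0 kb. For the sites of SIRT1 loss without stress this median was 43.2 kb. A longer gap has more room for sites, so neither median can be compared with that over all gaps. Within its gap the median shared site stood 0.233 of the free length from the nearer end, and 46.5% of sites were in the middle 50% of the gap. For the sites of SIRT1 loss without stress these values were 0.24 and 47.9%. Shared sites were thus not gathered at the centre of the gaps.

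The density of shared sites changed with the length of the gap. It was 5.62 per Mb in gaps of up to 10 kb, 7.85 in gaps of 10 to 25 kb, 6.04 at 25 to 50 kb, 3.79 at 50 to 100 kb, 2.003 at 100 to 250 kb and 0.578 in longer gaps. Short gaps have little room for a peak, and long ones can hold unsequenced stretches. Sites of SIRT1 loss without stress had nearly the same densities up to 50 kb (5.38, 7.80 and 6.02 per Mb) but higher ones in the longest gaps (0.919 per Mb). Of both classes together, the shared sites made up 51.1% in the shortest gaps and 38.6% in gaps over 250 kb. The sites also found after aphidicolin were thus relatively fewer in stretches that wild-type rescue cells left without sites.

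Most gaps that held a shared site held only 1, but most shared sites had another within 100 kb. A gap between wild-type rescue sites held 1 shared site in 6426 cases and 2 or more in 1023, and these gaps held 25.7% of the sites. No gap held more than 5, against up to 9 for the sites of SIRT1 loss without stress. The median distance to the next shared site was 149 kb (quartiles 50.6 and 359 kb), and 8.85% had the next within 10 kb. Within 100 kb on either side, 39.8% of the shared sites had no other, the median number was 1, and 10.8% had 3 or more. In the same windows the median shared site had 7 wild-type rescue sites and 12 other depleted-list peaks around it. The sites of SIRT1 loss without stress were spaced alike, with a median of 154 kb to the next and 40.9% alone within 100 kb.

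The densest groups were small. A gap of 0.106 Mb on chromosome 12 (hg19, 108036201 to 108142000) held 5 shared sites with 49 to 127 reads in depleted cells, of which 4 overlapped pSIRT1, 5 pMCM2 and 5 H4K16ac. A gap of 0.0984 Mb on chromosome 19 (54517401 to 54615800) held 5 with 31 to 292 reads, of which 4, 3 and 5 overlapped these marks. A gap of 0.0654 Mb on chromosome 2 (1682201 to 1747600) held 4 with 93 to 1308 reads, of which 3, 2 and 4 did. None of the 3 gaps held a site of SIRT1 loss without stress.

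Shared sites were found on every chromosome analysed, and their share was lowest where the wild-type rescue list was dense. Of the 43444 depleted-list peaks that T530A and aphidicolin peaks overlapped, 19.9% lacked wild-type rescue. By chromosome this share was between 14.3 and 26.9% on the autosomes other than chromosome 21, with the lowest value on chromosome 5 and the highest on chromosome 13. On chromosome 21 it was 6.34% (39 of 615 sites). On the first 50 Mb of chromosome 5 it was 0.699% (6 of 858), whereas the rest of that chromosome had 21.3%. These are the segments where the rescue lists were dense: 5.27% of wild-type rescue peaks and 4.98% of T530A peaks lay on the first 50 Mb of chromosome 5, against 1.89% of depleted-list and 1.55% of aphidicolin peaks. On chromosome X 45.7% lacked wild-type rescue, but only 105 sites were in the 3 lists there. The wild-type rescue list had 158 peaks on X, the aphidicolin list 230, the T530A list 353 and the depleted list 1123. The part of list density in these shares was not tested. In 599 windows of 5 Mb the median number of shared sites was 13 and the highest 54, on chromosome 22 between 45000001 and 50000000. That window held 469 depleted-list peaks, of which 11.5% were shared sites, against 7.87% of the whole list. A window with fewer shared sites could have a higher share, such as 36 sites (13.4%) on chromosome 15 between 25000001 and 30000000.

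**Figure D3:**
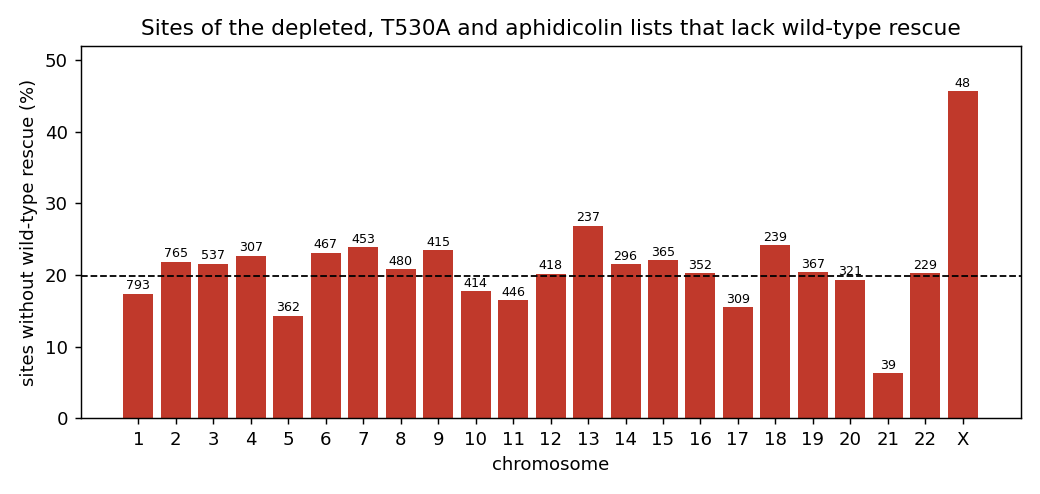
Percentage of the depleted-list peaks with T530A and aphidicolin overlap that had no wild-type rescue peak (vertical axis), by chromosome, with the number of shared sites above each bar. The dashed line marks the 19.9% of all such sites, and chromosome 21 (6.34%) and chromosome X (45.7%) stand farthest from it.

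The HCT116 ChIP lists were not used to choose the sites and were compared next. At least 1 bp of a pSIRT1 peak lay at 5842 shared sites, 67.5% (95% Wilson interval 66.5 to 68.4), against 62.7% of all depleted-list peaks. pMCM2 lay at 4842 sites, 55.9% (54.9 to 57.0), against 53.6%. H4K16ac lay at 7007 sites, 80.9% (80.1 to 81.7), against 77.2%. All 3 marks were found at 40.4% of the shared sites, against 37.9% of all depleted-list peaks, and none of them at 9.12%, against 12.9%. Shared sites were thus near the average of their list in each mark, a few percentage points above it. The intervals cover counting error only, and neighbouring sites are not independent.

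Shared sites stood between the other classes in every mark. By definition they also stood between them in the number of nascent-strand lists that held the site. The part of this number in the order of the classes was not tested. The pSIRT1 share differed from that of the sites of SIRT1 loss without stress by 7.74 percentage points (Newcombe interval 6.34 to 9.14) and from that of the sites of all 4 lists by -13.7 points (-14.7 to -12.6). For pMCM2 the differences were 6.11 (4.65 to 7.56) and -14.1 points (-15.2 to -12.9), and for H4K16ac 5.35 (4.14 to 6.55) and -9.69 points (-10.6 to -8.82). The classes differed in width, and a wider site meets a peak more easily. Standardised to the widths of the shared sites, the differences from sites of all 4 lists were smaller, at -8.01 for pSIRT1, -6.49 for pMCM2 and -6.68 for H4K16ac. Those from sites of SIRT1 loss without stress became 5.18, 3.99 and 3.70. Among the higher-read 50% of the 4 lists the differences from sites of all 4 lists were -5.33, -10.7 and -3.14 points, and in the middle 200 bp of each site -10.6, -3.72 and -7.61. Those from sites of SIRT1 loss without stress were 4.35, 3.36 and 2.65, and 3.79, 2.17 and 2.66. The order of the 3 classes was the same under these 3 settings.

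The classes stood farther apart in the narrowest than in the widest sites for pSIRT1 and H4K16ac, whereas for pMCM2 the sites of all 4 lists stayed higher in both. Among sites of up to 800 bp, 55.1% of shared sites carried pSIRT1, against 42.7% of sites of SIRT1 loss without stress and 63.9% of sites of all 4 lists. Among sites of 6000 bp or more the values were 90.4, 90.2 and 93.5%. H4K16ac had 74.7, 64.1 and 82.6% in the narrowest class and 96.8, 94.4 and 97.1% in the widest. For pMCM2 the values were 47.7, 42.6 and 52.03% in the narrowest class and 81.1, 79.8 and 87.7% in the widest. All 3 marks lay at 21.6% of the quartile of shared sites with 25 to 71 reads in depleted cells and at 69.4% of that with 177 or more. The median width of these quartiles was 1000 and 5400 bp, so reads and width cannot be told apart here. All depleted-list peaks with the same reads had 15.3 and 70.9%.

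**Figure D4:**
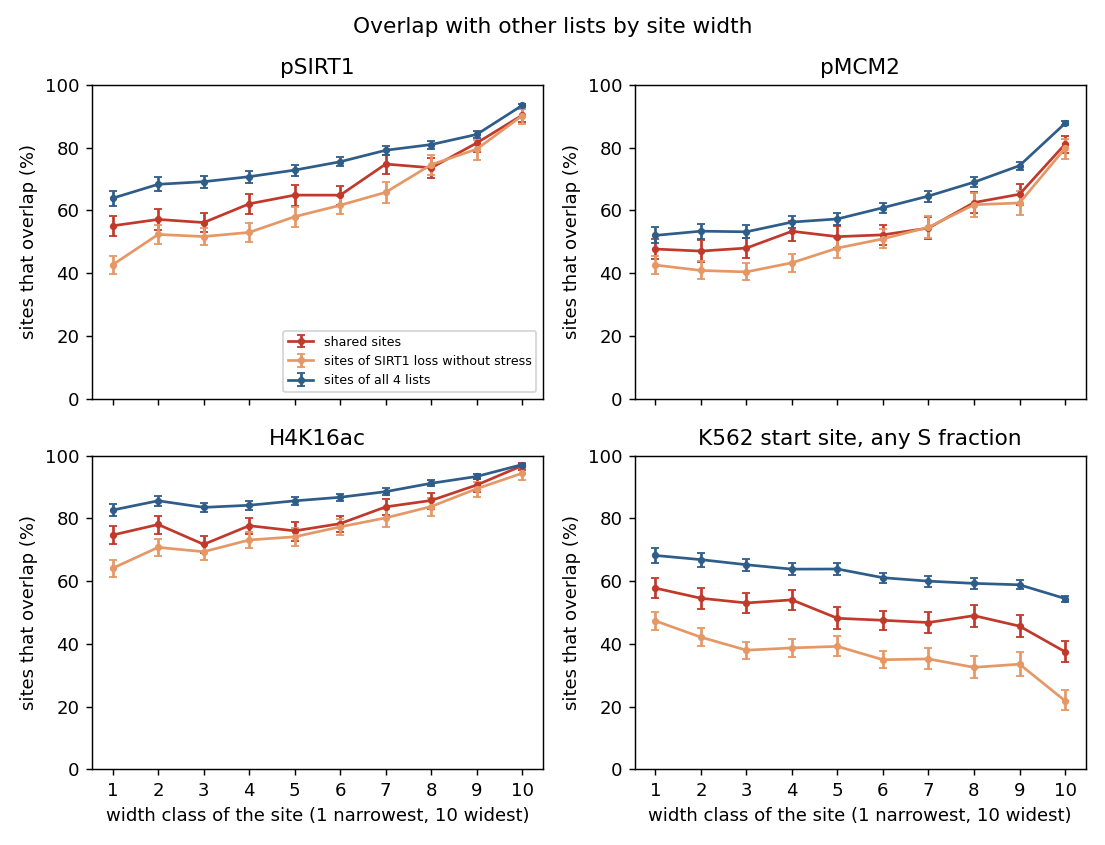
Percentage of sites that overlapped each list (vertical axis) in 10 width classes of equal parts of the shared sites (horizontal axis, from up to 800 bp to 6000 bp or more), with 95% Wilson intervals as bars. Shared sites lie between the other classes in most panels and widths, the mark shares increase with width, and the K562 share decreases with it, from 57.7 to 37.5% for the shared sites.

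The combinations of marks at shared sites had shares near those of their list. The combination of all 3 was the most frequent (3496 sites, 40.4% against 37.9% of all depleted-list peaks), followed by pSIRT1 with H4K16ac (1822 sites, 21.04% against 19.2%) and H4K16ac alone (911 sites, 10.5% against 11.3%). pMCM2 alone was found at 338 sites (3.90% against 4.43%) and pSIRT1 alone at 294 (3.40% against 3.09%). Sites with all 3 marks were the widest, with a median of 3000 bp and 152.5 reads, and sites with none had a median of 1800 bp and 72 reads. At equal widths, 62.6% of the shared sites with pSIRT1 also had pMCM2, against 41.4% of those without it, and for H4K16ac these shares were 90.4 and 62.0%. This split was not made over all depleted-list peaks, so it is not shown to be particular to shared sites. Both pSIRT1 and pMCM2 lay at 43.0% of the shared sites, against 40.4% of all depleted-list peaks. The ChIP peaks at shared sites were somewhat above the middle of their own lists, at median ranks of 60.2 (pSIRT1), 63.8 (pMCM2) and 71.8 percent (H4K16ac). At sites of SIRT1 loss without stress these ranks were 58.5, 63.2 and 71.8, and at sites of all 4 lists 71.5, 69.0 and 74.6.

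The marks were also compared with those of sites missing from only 1 other list, a comparison chosen after seeing the data. Standardised to the widths of the shared sites, pSIRT1 lay at 67.5% of the shared sites, at 65.7% of the sites missing only from the aphidicolin list and at 60% of those missing only from the T530A list. For pMCM2 the shares were 55.9, 53.1 and 50.2%, and for H4K16ac 80.9, 76.7 and 76.8%. Without standardisation, the pSIRT1 share of the sites missing only from the aphidicolin list was 67.9%, slightly above that of the shared sites. Their pMCM2 and H4K16ac shares were then 55.5 and 78.2%. Those missing only from the T530A list had 60.2, 50.3 and 77.0% for the 3 marks. These classes are all counted over depleted-list peaks. The sites missing only from the depleted list can be counted only over another list, here T530A, and their marks were scarcer. Of these 8121 sites, with the same median width of 2400 bp, 37.2% carried pSIRT1, 38.1% pMCM2 and 62.1% H4K16ac. Over all T530A-list peaks these shares were 53.1, 47.7 and 68.8%, so the sites missing only from the depleted list lay below their own list in each mark. The ChIP cells had their own SIRT1, and the part of library properties in this overlap was not tested.

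Of the 3 marks and K562 use, K562 use differed most between the shared sites and the sites of SIRT1 loss without stress. A K562 nascent-strand peak of at least 1 S-phase fraction lay at 4291 shared sites, 49.6% (48.5 to 50.6), against 43.6% of all depleted-list peaks. The share was 37.5% at sites of SIRT1 loss without stress and 59.7% at sites of all 4 lists. The shared sites differed from these by 12.04 (10.6 to 13.5) and -10.2 points (-11.3 to -9.00). At equal widths the differences were 13.1 and -12.7 points. The difference from sites of all 4 lists was smaller among the higher-read 50% of the 4 lists, at -3.81 points, and in the middle 200 bp of each site, at -5.04. That from sites of SIRT1 loss without stress was 11.6 and 9.69 points under these settings. By fraction, early S sites lay at 29.5% of the shared sites against 26.3% of all depleted-list peaks. Middle S sites lay at 34.2% against 29.1%, and late S sites at 34.0% against 30.1%. All 3 fractions marked 1471 shared sites (17.0%), against 15.2% of all depleted-list peaks, and 4368 (50.4%) had none. The sites missing only from the aphidicolin or the T530A list were at 44.9 and 46.4% at equal widths, below the 49.6% of the shared sites. Of the sites missing only from the depleted list, 62.1% lay at a K562 site, against 49.6% of all T530A-list peaks, with no standardisation.

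Shared sites used in K562 carried pSIRT1 of HCT116 less often. The pSIRT1 share was 74.0% at shared sites with no K562 fraction, 64.8% with 1, 60.7% with 2 and 56.7% with all 3. At equal widths the order was the same, 73.0, 65.3, 61.9 and 58.1%. pMCM2 had no such order, at 57.0, 53.9, 57.4 and 53.8%, and H4K16ac a small one, at 83.7, 79.3, 77.5 and 77.3%. The order of pSIRT1 was not particular to shared sites, since at equal widths the sites of all 4 lists had 81.9, 75.4, 73.2 and 68.4%. Without standardisation, the pSIRT1 shares over all depleted-list peaks together were nearly level, at 64.3, 60.1, 60.1 and 61.3%. The median width of these peaks was 2400 bp with no fraction and 2800 bp with all 3. Sites of SIRT1 loss without stress had 66.3, 54.2, 47.5 and 41.5%, also without standardisation.

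Shared sites far from the wild-type rescue sites had fewer marks and more K562 use than near ones, as did the sites of SIRT1 loss without stress. Within 1 kb of a wild-type rescue site 72.2% carried pSIRT1 and 45.2% lay at a K562 site. Beyond 50 kb these shares were 52.1 and 57.7%. H4K16ac went from 83.1 to 69.0% and pMCM2 from 56.3 to 48.8%. For the sites of SIRT1 loss without stress pSIRT1 went from 68.8 to 40.2%, H4K16ac from 80.6 to 61.7% and K562 use from 34.7 to 45.8%. Over all depleted-list peaks outside the wild-type rescue list pSIRT1 went from 61.8 to 33.7% and H4K16ac from 76.7 to 53.1%, while K562 use was 34.1 and 34.3%. The remote shared sites were also narrower, with a median of 1800 bp against 2800 bp. At equal widths the values beyond 50 kb were 53.6% for pSIRT1, 51.0% for pMCM2, 71.1% for H4K16ac and 55.4% for K562 sites, and within 10 kb 71.0, 57.0, 83.2 and 47.3%. Signal per kb in depleted cells was nearly the same at both ends, 45.6 and 45.7 reads.

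**Figure D5:**
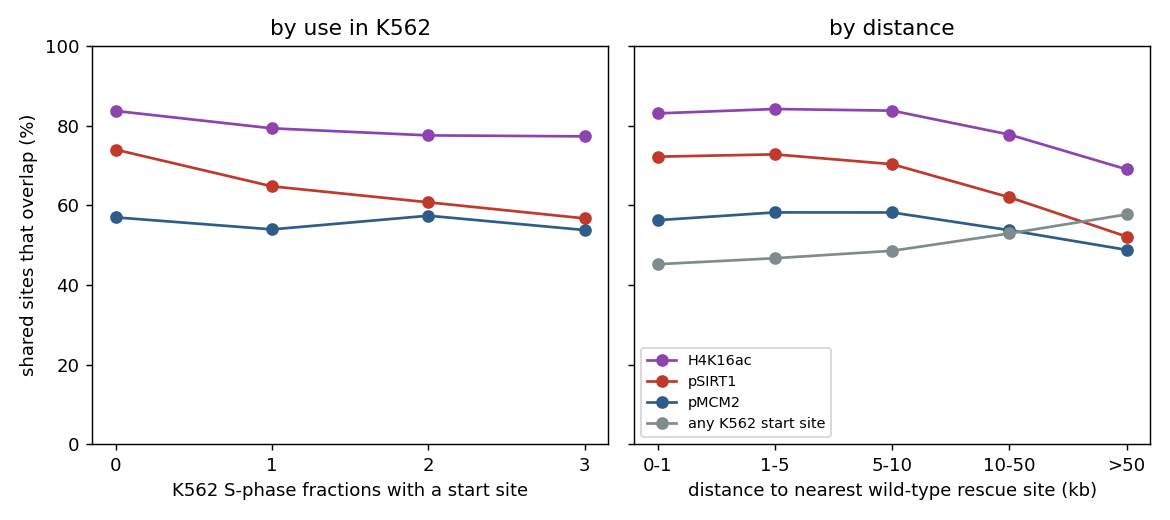
Percentage of shared sites that overlapped each list (vertical axis), by the number of K562 S-phase fractions with a start site there (left) and by the distance to the nearest wild-type rescue site in kb (right). On the left pSIRT1 goes from 74.0 to 56.7% while pMCM2 stays between 53.8 and 57.4%, and on the right pSIRT1 and K562 use cross, at 52.1 and 57.7% beyond 50 kb.

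The K562 ChIP lists gave shared sites values close to those of all depleted-list peaks. For pSIRT1 the shares were 37.1% in G1 against 36.1% of all depleted-list peaks, 17.0% in early S against 14.5%, 18.3% in middle S against 18.3%, 61.0% in late S against 58.3% and 21.5% in G2 against 19.6%. The pSIRT1 list of unfractionated K562 cells gave 41.2% against 41.7%. For pMCM2 they were 14.1% in G1 against 14.1%, 21.6% in early S against 21.5%, 21.6% in middle S against 21.7%, 21.9% in late S against 21.9% and 43.2% in G2 against 41.2%. The lists differ in length, so phases were not compared. Sites of all 4 lists were higher in each of these 11 lists, for example at 57.8% for pMCM2 in G2 and 76.4% for pSIRT1 in late S.

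The strongest shared sites, ordered by the mean of their read ranks in the 3 lists, were between 16400 and 44600 bp long. The first, at chr1:161405401-161445400 (hg19), had 10879 reads in the depleted list, 7301 in the T530A list and 7271 in the aphidicolin list, and a wild-type rescue site 1.20 kb away. This stretch is known, as background and not from these files, for tandem transfer RNA genes. The second, at chr1:228741401-228783800, had 9032, 6322 and 5771 reads in that order and its nearest wild-type rescue site at 28.0 kb. It is known for the tandem 5S ribosomal RNA genes. The third, at chr1:17012201-17056800, had 3600, 4379 and 6291 reads, and its aphidicolin partner also overlapped the wild-type rescue list. The next were at chr17:36328401-36351200 with 2589, 2517 and 2985 reads and at chr15:20543601-20560000, near the centromere, with 2084, 2230 and 2810. All 5 carried the 3 HCT116 marks, and only the first lay at a K562 start site, of late S. Of all shared sites of 6000 bp or more, 90.4% carried pSIRT1, 81.1% pMCM2 and 96.8% H4K16ac, and 37.5% lay at a K562 start site. How reads of repeated genes were placed among their copies is not given in the sources used here.

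Among the sites over 50 kb from any wild-type rescue site, the strongest was at chr16:21530801-21540200, with 627 reads in the depleted list, 656 in the T530A list, 578 after aphidicolin and no K562 start site. It was 78.4 kb from the nearest wild-type rescue site. The next was at chr22:16333201-16337600, 56.0 kb away, with 1195, 556 and 324 reads. A site at chr4:190587401-190591800 near the chromosome end, 116.2 kb away, had 318 and 543 reads in depleted and T530A rescue cells and 3972 in its much longer aphidicolin partner. A site at chr16:89949801-89952200 had 637, 303 and 406 reads at 71.0 kb, and one at chr3:143516201-143525200 had 359, 344 and 353 reads at 67.0 kb. The sites on chromosomes 4 and 3 lay at start sites of all 3 K562 fractions, that on chromosome 22 at middle and late S sites. Of the 5, all overlapped H4K16ac, 4 pSIRT1 and 4 pMCM2. Among all 539 shared sites that far away, 69.0, 52.1 and 48.8% overlapped these marks.

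Few shared sites overlapped every HCT116 mark and every K562 fraction, as was so for all depleted-list peaks. All 3 HCT116 marks and all 3 K562 fractions were found at 465 sites (5.37%), against 6.07% of all depleted-list peaks and 14.3% of sites of all 4 lists, and 456 of them were at most 10 kb wide. The strongest of these was at chr15:20560801-20567000, with 676 reads in depleted cells, and it shared its T530A and aphidicolin partner peaks with the chromosome 15 site above. The others were at chr17:63167401-63174400 with 728, 475 and 1046 reads in depleted, T530A and aphidicolin lists, at chr1:120608201-120614200 with 374, 1220 and 560, at chr16:84358201-84362000 with 419, 567 and 574, and at the chromosome 4 site above. These reads are those of the whole partner peaks. The T530A partner of this chromosome 1 site and the aphidicolin partner of this chromosome 16 site also overlapped the wild-type rescue list. At the other extreme, 366 shared sites (4.23%) had no mark and no K562 site, against 7.68% of all depleted-list peaks.

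The limit of the definition runs through neighbouring peaks. Just inside it, 55 shared sites touched a wild-type rescue peak without overlapping it, such as chr20:34967401-34974000 with 365, 614 and 563 reads in depleted, T530A and aphidicolin lists, and chr1:27852001-27856200 with 264, 721 and 573. The other 3 named sites of this kind had 336, 337 and 185 reads in depleted cells. At all 5 the aphidicolin partner also overlapped the wild-type rescue list, and at 4 the T530A partner did. Just outside it, 160 sites of all 4 lists overlapped a wild-type rescue peak by 200 bp, 1 step of the grid on which the lists were made. Among these, chr1:44034601-44039400 had 325 reads in depleted and 532 in wild-type rescue cells, and chr5:149210601-149218200 had 298 and 188. The other 3 named sites had 305, 169 and 208 reads in depleted cells.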

How the data were processed

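Peak lists of 21 of 23 samples were analysed, each from 1 library. The 2 controls of sheared DNA were not used here. The regions lie on hg19, and MACS and SICER are named without versions, per the submitters' processing notes. Aligner and thresholds are not stated in the sources at hand. In 18 lists the deposited value is a whole number for each region, taken as a read count and left unscaled. In 3 lists the deposited value is a score, namely pSIRT1 of K562 in middle S and in G2, and H4K16ac, laid out like MACS output. Its deposited fold enrichment ratio and −log10 p and q columns were not used. The units were inferred from the values, since the lists have no headers.

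Only peaks of chromosomes 1 to 22 and X entered. Peaks within a list did not overlap. An overlap was at least 1 bp, and reads of several overlapped peaks were summed. Shares have 95% Wilson intervals and differences Newcombe intervals. Shares at equal widths were taken in 10 width classes, split at the deciles of the shared sites, and weighted by their widths. Classes, overlaps and distances were tested on simulated data. Depth beyond the reads in peaks is unknown.

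Named sites were the 5 highest by mean read rank in the depleted, T530A and aphidicolin lists among all shared sites, among those over 50 kb from the wild-type rescue and among those with all marks and K562 fractions up to 10 kb wide, the 5 on each side of the limit of the definition, and the 3 gaps with the most sites. Sites were not assigned to genes, since no annotation of hg19 was used here. The sites, classes and rules were chosen with earlier results of these data known. The counts over T530A or aphidicolin peaks, the sites missing from only 1 other list, the splits at equal widths, the shares over all T530A-list peaks and over all peaks by distance or reads, and the segments of chromosomes 5, 21 and X were chosen after seeing the data. The tools were numpy 2.4.6, pandas 2.3.3, scipy 1.17.1 and matplotlib 3.10.9 under Python 3.11.15.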

Additional observations from a re-analysis of the deposited data

How the results depend on the processing

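The differences in shares between the shared sites and both other classes kept their sign in 11 of 11 alternatives each, and the median distance to the wild-type rescue stayed between 5.20 and 10.9 kb in 9. The number of shared sites was 7288 to 8737 in 9 alternatives and 4637 among the higher-read 50% of the 4 lists. The sizes of the differences, in percentage points, moved beyond their intervals as follows. With those higher-read peaks, the differences from sites of all 4 lists were -5.33 for pSIRT1, -10.7 for pMCM2, -3.14 for H4K16ac and -3.81 for K562 sites, and from sites of SIRT1 loss without stress 4.35, 3.36 and 2.65 for the marks. At equal widths they were -8.01, -6.49, -6.68 and -12.7, and 5.18, 3.99 and 3.70 for the marks. In the middle 200 bp they were -10.6, -3.72, -7.61 and -5.04, and 3.79, 2.17, 2.66 and 9.69. With an overlap of 50% of the shorter peak in the definition, the marks had -12.3, -12.8 and -8.63 against sites of all 4 lists. With partner peaks outside the wild-type rescue, pSIRT1 had -15.3, H4K16ac -10.7 and K562 sites -8.26. With the higher-scoring 50% of the mark or K562 lists the differences were -21.4, -16.2, -14.2 and -13.9, and 6.27 for pSIRT1 and 10.1 for K562 sites against SIRT1 loss without stress. The cause was not tested. No paired analysis was possible because each group had 1 library, and none could be left out. Depth is known only as reads within peaks, so a site missing from the wild-type rescue list may hold reads below its threshold.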
